A study of Homo sapiens with 30 samples.

Results

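The IGF binding proteins, the pappalysins that cut them and the stanniocalcins that inhibit the pappalysins were followed at the RNA level in Ewing sarcoma cells exposed to a BET bromodomain inhibitor. The 10 genes IGFBP2 to IGFBP7, PAPPA, PAPPA2, STC1 and STC2 were taken by name, as the rows of the count table that map to these symbols, out of 33538 genes; the set was drawn up with earlier results of these data known. All 10 passed the filter on low counts, as did 16713 genes in all.

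IGF1 and IGF2 circulate and act largely in complex with IGF binding proteins, which hold the ligands away from the IGF1 receptor, prolong their lifetime and place them in the matrix. PAPPA and PAPPA2 are secreted metalloproteases that cut some of these binding proteins and so release ligand, and STC1 and STC2 are secreted glycoproteins that bind and inhibit both proteases. Ewing sarcoma is a tumour of bone and soft tissue in which IGF1 receptor signalling has long been studied, and PAPPA is known as a protein found on its cells.

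The established Ewing sarcoma lines CHLA10, A673 and TC32, each given with the EWS::FLI1 fusion genotype, were exposed to BMS-986158 or to DMSO vehicle. BMS-986158 is a small-molecule inhibitor of BET proteins, which bind acetylated chromatin, and it was used at 5 nM. Exposure lasted 3 days (72 hours) in CHLA10, A673 and TC32, and 20 days in CHLA10 and A673, where treated cells are described as persisters kept in the compound throughout. There were 10 groups with 3 libraries in each. The labels do not tell whether replicates were separate cultures, and p-values therefore speak only to variation among these samples, some of which may be technical. A673 and TC32 were grown in RPMI with 10% serum, and CHLA10 in IMDM with 20% serum, so in differences between CHLA10 and the other lines, line and medium cannot be told apart.

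Library totals ran between 16083677 and 48949739 counts. The summed level of 8 Ewing sarcoma markers was 2190 to 7246 CPM over the libraries, although NKX2-2 went as low as 0.0397 CPM. Treated and vehicle cells did not overlap in 4 of the 5 comparisons, with the treated cells lower, for instance at 5387 to 5510 CPM in treated and 7013 to 7246 CPM in vehicle TC32 cells. In CHLA10 at 20 days the groups overlapped, at 3145 to 5177 CPM in treated and 5005 to 6514 CPM in vehicle cells. Singly, by the test described below, 4 of the 8 markers fell in CHLA10, 2 in A673 and 3 in TC32 at 3 days. At 20 days 5 fell in CHLA10 and 5 in A673, and in A673 at 3 days 1 rose. Between 15.7% and 22.8% of all genes fell in these comparisons. CD3E was at 0 in all libraries and PTPRC reached at most 0.395 CPM. The 4 fibroblast markers summed to 29.1 to 309 CPM, most of it COL6A1. The 3 endothelial markers summed to 0.081 to 0.239 CPM in treated and 3.09 to 5.70 CPM in vehicle A673 cells at 3 days, and to 0.0636 to 0.428 CPM in treated and 2.86 to 5.01 CPM in vehicle A673 cells at 20 days, where both of those tested, PECAM1 and CDH5, fell at each time. The sum was also lower without overlap in treated TC32 cells, at 0 to 0.196 CPM against 0.949 to 1.86 CPM in vehicle. In CHLA10 it was 0.130 to 0.401 CPM in treated and 0.407 to 0.938 CPM in vehicle cells at 3 days. At 20 days it was 0.0815 to 0.506 CPM in treated and 0.566 to 0.985 CPM in vehicle CHLA10 cells. Of the 2 tested, 1 fell in TC32 and 0 in CHLA10. The part of these markers in the results was not tested. Of 3 genes used as signs of BET inhibition (HEXIM1, SERPINI1 and HEXIM2), 2 rose in each of the 5 comparisons and the remaining gene was not called. Between 14% and 22.3% of all genes rose in these comparisons. There were 4 libraries that lay farthest from their groups, namely replicate 3 of treated CHLA10 at 20 days, of vehicle CHLA10 at 20 days, of treated A673 at 20 days and of vehicle A673 at 3 days, and the fit was repeated without them. The chi-square per gene relates the difference between 2 libraries to sampling noise. Against the other libraries of their groups it was 36.1 to 87.5 for these 4. Replicate 1 of treated TC32 cells, at 34.6 and 31.7, lay nearly as far as the nearest of them and was kept.

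Differences are given as log2 changes, BMS-986158 over DMSO, with standard errors, and a gene was called at an adjusted p under 0.05 (edgeR's quasi-likelihood test, Benjamini-Hochberg over all genes tested). Levels are CPM, counts scaled to the size of the library. In bulk samples, fewer cells expressing a gene and less RNA per cell cannot be told apart. PAPPA and STC2 fell in each of the 5 comparisons, whereas 3.1% of all genes tested did so. IGFBP2 rose in 4 of 5, STC1 rose in 3, and IGFBP3, IGFBP4, IGFBP6 and PAPPA2 each fell in 3. The PAPPA2 calls in CHLA10 at 3 days and A673 at 20 days rest on 0 counts in treated cells, against 6 and 10 in vehicle cells. IGFBP5 fell in 2. IGFBP7 fell in TC32 and rose in A673 at 20 days.

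At 3 days in CHLA10, 7 of the 10 genes were called, 2 higher and 5 lower, beside 29.8% of all genes tested (14% higher and 15.7% lower). In A673 at that time 5 were called, 1 higher and 4 lower, where 33.7% of all genes passed (15.3% higher, 18.4% lower). TC32 had 9 calls, 1 higher and 8 lower, against a background of 45.1% (22.3% higher, 22.8% lower). PAPPA2, among the 8 lower, passed the low-count filter through vehicle TC32 cells alone. After 20 days CHLA10 had 6 calls, 2 higher and 4 lower, beside 33.7% of all genes (16.5% higher, 17.2% lower). A673 at that time had 6, 2 higher and 4 lower, beside 39.7% (19.7% higher, 19.9% lower). The median log2 change of the 10 genes was -1.03 in CHLA10, -0.15 in A673 and -2.26 in TC32 at 3 days, and -0.13 in CHLA10 and -0.22 in A673 at 20 days. Over all genes tested, the medians lay between -0.02 and 0 in these comparisons.

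**Figure D1:**
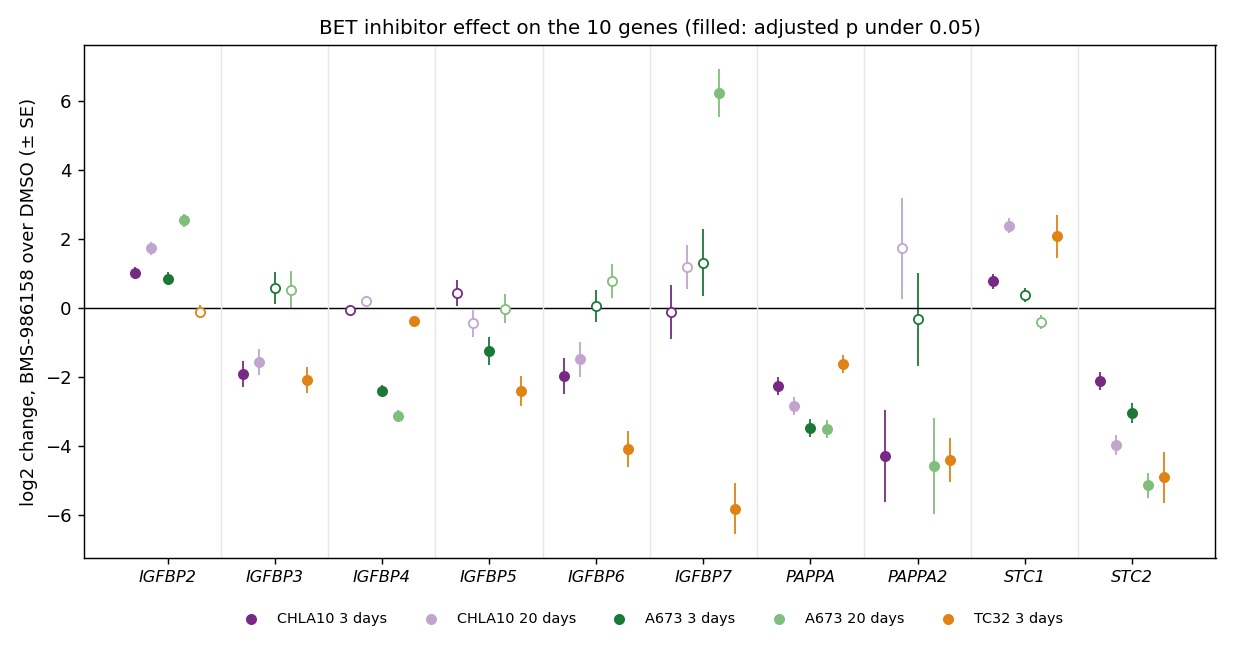
The plot gives the log2 change (BMS-986158 over DMSO, ± SE) of each of the 10 genes on the vertical axis, with 5 points per gene, 1 for each line and time; filled points passed an adjusted p under 0.05 and open points did not. PAPPA and STC2 lie below 0 in all 5 comparisons, IGFBP2 lies above 0 in 4, and IGFBP7 spans -5.83 in TC32 to 6.22 in A673 at 20 days.

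PAPPA (pappalysin 1, ENSG00000182752, GRCh38 chr9:116153804-116402322, plus strand) encodes the protease best known for cutting IGFBP4. It was at 10.0, 9.27 and 15.6 CPM in treated CHLA10 cells at 3 days, against 57.9, 59.3 and 52.9 CPM in vehicle cells. All treated libraries lay below all vehicle libraries, and the log2 change was -2.29 ± 0.26 (adjusted p = 3.88e-07). In A673 at 3 days PAPPA had 14.2, 13.8 and 17.1 CPM in treated cells and 135, 155 and 218 CPM in vehicle cells, a log2 change of -3.49 ± 0.26 (adjusted p = 1.04e-09). TC32 cells held 5.98, 10.0 and 11.7 CPM when treated and 24.7, 30.3 and 31.1 CPM in vehicle, a log2 change of -1.64 ± 0.26 (adjusted p = 2.21e-05). Again the groups did not overlap in either line. Treated cells at 3 days averaged 11.6 ± 3.47, 15.01 ± 1.81 and 9.24 ± 2.95 CPM of PAPPA in CHLA10, A673 and TC32 (SD, n = 3 each), and vehicle cells 56.7 ± 3.34, 169 ± 43.5 and 28.7 ± 3.51 CPM in the same order of lines.

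The fall of PAPPA was also seen at 20 days. CHLA10 cells had 11.9, 11.2 and 5.26 CPM of PAPPA when treated, against 79.5, 63.4 and 60.5 CPM in vehicle (log2 change -2.84 ± 0.26, adjusted p = 1.38e-08). A673 cells had 17.1, 13.4 and 18.6 CPM, against 153, 213 and 199 CPM in vehicle (log2 change -3.52 ± 0.27, adjusted p = 3.67e-10). The 20-day effect minus the 3-day effect was -0.56 ± 0.36 in CHLA10 (adjusted p = 0.38) and -0.03 ± 0.35 in A673 (adjusted p = 0.992), so no difference between the times passed the test. Between lines at 3 days, the effect on PAPPA in A673 minus that in CHLA10 was -1.21 ± 0.35 (adjusted p = 0.0291), and that in TC32 minus that in A673 was 1.85 ± 0.36 (adjusted p = 0.000696). The A673 minus CHLA10 difference lost its call without the low-count filter (adjusted p = 0.0722) and without any of 7 of the 12 libraries, among them replicate 3 of treated CHLA10 cells (-0.94, adjusted p = 0.0903) and replicate 3 of vehicle A673 cells (-0.98, adjusted p = 0.0625). PAPPA shares 2450 exonic bases with PAPPA-AS1 on the other strand, and PAPPA-AS1 had 0 counts in every library.

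PAPPA2 (pappalysin 2, ENSG00000116183, GRCh38 chr1:176463171-176845605, plus strand) encodes the relative that cuts IGFBP3 and IGFBP5, and its RNA was scarce outside TC32. TC32 cells had 0.148, 0.0982 and 0.0533 CPM when treated and 2.85, 1.78 and 2.197 CPM in vehicle, from 6 counts in treated and 120 in vehicle cells summed over the group. The log2 change was -4.42 ± 0.64 (adjusted p = 9.32e-06) and the groups did not overlap. In CHLA10 at 3 days PAPPA2 had 0 counts in treated and 6 in vehicle cells, at least 2.48-fold lower when the treated group is set to a floor of 3 counts over the group (adjusted p = 0.0176). A673 at 20 days had 0 counts in treated and 10 in vehicle cells, at least 2.34-fold lower (adjusted p = 0.0109). Floors cover counting error only and take the 6 and 10 vehicle counts as exact. Outside vehicle TC32 cells no library exceeded 0.184 CPM of PAPPA2, so the gene passed the low-count filter through those cells alone. That vehicle group is itself part of the TC32 comparison and of the vehicle differences of TC32 from the other lines. The PAPPA2 calls there are therefore not independent of the filter. With the replicate block the calls in CHLA10 at 3 days and A673 at 20 days were lost (adjusted p = 0.0781 in CHLA10 and 0.059 in A673). The CHLA10 call was lost without replicate 1 of treated cells (adjusted p = 0.055) or replicate 2 of vehicle cells (adjusted p = 0.0618). With 1 count in treated and 1 in vehicle A673 cells at 3 days, and 1 and 0 in treated and vehicle CHLA10 cells at 20 days, a change in PAPPA2 was not detectable at this depth.

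**Figure D2:**
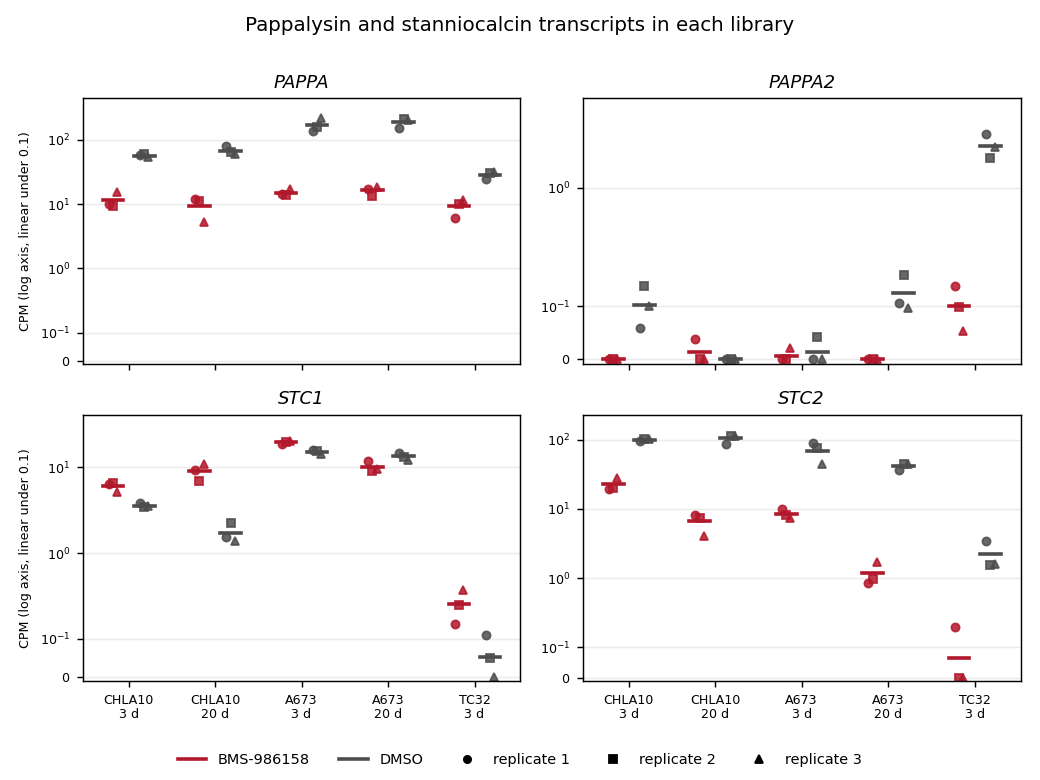
Each panel shows the CPM of PAPPA, PAPPA2, STC1 or STC2 in every library on an axis that is logarithmic above 0.1 CPM and linear below, with BMS-986158 left of DMSO for each line and time, marker shape for the replicate and a bar at the group mean. PAPPA and STC2 are lower in all treated libraries of each pair of groups, PAPPA2 exceeds 1 CPM in vehicle TC32 cells alone, and STC1 in treated CHLA10 cells at 20 days averages 9.03 CPM, against 1.73 CPM in vehicle.

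STC2 (stanniocalcin 2, ENSG00000113739, GRCh38 chr5:173314713-173329503, minus strand) encodes the inhibitor that forms a covalent complex with PAPPA. In CHLA10 at 3 days it had 19.4, 20.2 and 28.1 CPM in treated cells and 95.03, 101 and 101 CPM in vehicle cells (log2 change -2.13 ± 0.27, adjusted p = 1.6e-06). A673 cells at 3 days had 9.95, 8.17 and 7.35 CPM when treated, against 89.9, 75.5 and 44.7 CPM in vehicle (log2 change -3.06 ± 0.28, adjusted p = 2.5e-08). In TC32, where vehicle cells held only 3.46, 1.53 and 1.598 CPM, treated cells held 0.198, 0 and 0 CPM, that is 4 counts, all in replicate 1, against 117 (log2 change -4.92 ± 0.73, adjusted p = 7.95e-06). Every treated library lay below every vehicle library in these 3 lines. Without replicate 1 of treated TC32 cells the fitted change was -8.62, with both remaining treated libraries at 0. The TC32 effect minus the CHLA10 effect was -2.78 ± 0.91 (adjusted p = 0.0432). That difference lost its call in limma-voom (adjusted p = 0.106), with library size alone as the scaling (adjusted p = 0.05), without the low-count filter (adjusted p = 0.095), in a fit of CHLA10 and TC32 alone (adjusted p = 0.0521) and without any of 9 of the 12 libraries, and it was -6.48 without treated TC32 replicate 1.

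STC2 was lower still at 20 days. Treated CHLA10 cells had 8.28, 7.39 and 4.08 CPM of STC2, against 87.6, 115 and 113 CPM in vehicle (log2 change -3.99 ± 0.29, adjusted p = 3.32e-10). Treated A673 cells had 0.847, 0.953 and 1.71 CPM, against 37.0, 44.5 and 44.8 CPM in vehicle (log2 change -5.15 ± 0.36, adjusted p = 7.36e-11). The 20-day effect on STC2 minus the 3-day effect was -1.86 ± 0.38 in CHLA10 (adjusted p = 0.00544) and -2.10 ± 0.45 in A673 (adjusted p = 0.00545). Of the 10 genes, 2 differed between the times in CHLA10 (STC2 and STC1), beside 6.32% of all genes, and 3 in A673 (STC2, IGFBP2 and IGFBP7), beside 7.26%. In means, the ratio of treated to vehicle CPM for STC2 was 0.228 at 3 days and 0.0627 at 20 days in CHLA10, and 0.121 at 3 days and 0.0278 at 20 days in A673.

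STC1 (stanniocalcin 1, ENSG00000159167, GRCh38 chr8:23841915-23854807, minus strand), the other stanniocalcin, rose in CHLA10 while STC2 fell. At 3 days STC1 had 6.40, 6.55 and 5.16 CPM in treated CHLA10 cells and 3.81, 3.41 and 3.51 CPM in vehicle cells (log2 change 0.76 ± 0.21, adjusted p = 0.00754). At 20 days it had 9.33, 6.91 and 10.8 CPM in treated cells and 1.55, 2.27 and 1.37 CPM in vehicle cells (log2 change 2.37 ± 0.22, adjusted p = 5.49e-09). Groups did not overlap at either time, and the 20-day effect exceeded the 3-day effect by 1.62 ± 0.31 (adjusted p = 0.00293).

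A673 had the most STC1 of the 3 lines, and its changes did not pass the test although the groups did not overlap at either time. Treated A673 cells had 18.5, 19.7 and 20.4 CPM of STC1 at 3 days, against 15.7, 15.5 and 14.4 CPM in vehicle (log2 change 0.36 ± 0.19, adjusted p = 0.154). At 20 days they had 11.8, 8.96 and 9.48 CPM, against 14.8, 13.2 and 12.2 CPM in vehicle (log2 change -0.41 ± 0.20, adjusted p = 0.102). The A673 effect minus the CHLA10 effect at 20 days was -2.79 ± 0.30 (adjusted p = 1.76e-07). The 20-day A673 difference was called by DESeq2 (-0.45, adjusted p = 0.0235), by limma-voom (-0.42, adjusted p = 0.0371), with library size alone as the scaling (-0.53, adjusted p = 0.0322) and in a fit of A673 alone (-0.41, adjusted p = 0.0396), and the 3-day difference by limma-voom (0.38, adjusted p = 0.0189). TC32 was nearly without STC1, with 15 counts in treated and 3 in vehicle cells. The depth-scaled ratio of these counts was 4.48, with a 95% counting interval of 1.27 to 24.2, and the call (adjusted p = 0.017) was lost without replicate 3 of treated cells (adjusted p = 0.106), replicate 2 of vehicle cells (adjusted p = 0.0568) or replicate 3 of vehicle cells (adjusted p = 0.0863).

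IGFBP4 (ENSG00000141753, GRCh38 chr17:40443461-40457731, plus strand) encodes the binding protein most closely tied to PAPPA, its protease. Its change in A673 was not shared by CHLA10. Treated A673 cells had 5.74, 5.14 and 5.04 CPM of IGFBP4 at 3 days, against 28.9, 31.2 and 24.3 CPM in vehicle (log2 change -2.41 ± 0.17, adjusted p = 7.1e-11). At 20 days they had 2.75, 2.48 and 3.48 CPM, against 24.4, 26.5 and 26.4 CPM in vehicle (log2 change -3.14 ± 0.18, adjusted p = 6.97e-13). All treated A673 libraries lay below all vehicle A673 libraries.

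In CHLA10 at 3 days IGFBP4 had 157, 182 and 158 CPM in treated cells and 173, 177 and 175 CPM in vehicle cells (log2 change -0.08 ± 0.14, adjusted p = 0.73). At 20 days it had 195, 229 and 304 CPM in treated cells and 210, 222 and 203 CPM in vehicle cells (log2 change 0.20 ± 0.14, adjusted p = 0.313). The groups overlapped both times, and without the 4 distant libraries the 20-day change was -0.02 (adjusted p = 0.958). The A673 effect minus the CHLA10 effect was -2.34 ± 0.22 at 3 days (adjusted p = 1.48e-07) and -3.34 ± 0.23 at 20 days (adjusted p = 1.32e-10). TC32 cells had 375, 223 and 247 CPM when treated and 378, 352 and 378 CPM in vehicle (log2 change -0.39 ± 0.14, adjusted p = 0.0277). There replicate 1 of treated cells lay among the vehicle libraries; without it the change was -0.65 (adjusted p = 0.000217), and without treated replicate 2 or 3 it was -0.24 (adjusted p = 0.209) or -0.30 (adjusted p = 0.145). Leaving out vehicle replicate 1 or 3 also ended that call (adjusted p = 0.0731 and 0.0713).

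The 250 bases before the annotated starts of PAPPA and IGFBP4 are shown because both genes, the protease and its substrate, fell in A673 at both times, and those of IGFBP2 and IGFBP5 because these neighbouring genes had different calls. The sequences are from RefSeq (GRCh38.p14), which held starts for 8 of the 10 genes and 3 starts for IGFBP2, of which the one at the start of the gene is shown. Each was searched on both strands for the TATA box letters TATAAA, for the GC box letters GGGCGG and for the E-box letters CACGTG. The search also covered GGAAGGAA, which is a pair of ETS cores, and TGATGNAA, which is a core of stress-response elements. Matches are in capitals.
PAPPA, chr9:116153541-116153790, plus strand: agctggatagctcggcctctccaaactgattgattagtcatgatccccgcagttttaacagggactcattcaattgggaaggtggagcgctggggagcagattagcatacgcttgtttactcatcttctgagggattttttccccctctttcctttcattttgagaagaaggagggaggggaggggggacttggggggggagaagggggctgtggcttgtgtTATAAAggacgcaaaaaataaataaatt
IGFBP4, chr17:40443200-40443449, plus strand: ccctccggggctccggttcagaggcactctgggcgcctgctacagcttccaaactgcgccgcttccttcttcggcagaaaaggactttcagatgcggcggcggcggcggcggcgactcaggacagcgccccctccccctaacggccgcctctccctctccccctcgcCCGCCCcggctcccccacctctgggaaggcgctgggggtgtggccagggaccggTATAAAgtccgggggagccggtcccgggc
IGFBP2, chr2:216632578-216632827, plus strand: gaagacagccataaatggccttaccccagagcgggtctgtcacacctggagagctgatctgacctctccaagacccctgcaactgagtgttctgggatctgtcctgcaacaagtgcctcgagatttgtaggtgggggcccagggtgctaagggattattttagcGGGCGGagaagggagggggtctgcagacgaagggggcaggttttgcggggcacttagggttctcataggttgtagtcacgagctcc
IGFBP5, chr2:216695550-216695799, minus strand: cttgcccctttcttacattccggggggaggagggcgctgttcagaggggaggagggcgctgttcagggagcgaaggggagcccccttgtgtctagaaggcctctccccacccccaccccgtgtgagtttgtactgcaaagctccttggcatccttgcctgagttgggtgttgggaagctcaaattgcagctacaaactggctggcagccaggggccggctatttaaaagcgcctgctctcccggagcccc
PAPPA and IGFBP4 held TATAAA, leftmost letter at -28 and -29 from the start, as did 10.75% of 34943 windows of this length. No window of the other 6 genes held it, STC2 among them, which also fell in A673 at both times and whose window, overlapping its own annotated exon, held none of the motifs. IGFBP4 and IGFBP2 held the GC box letters, at -83 and -86, as did 42.55% of windows, and in IGFBP4 they stand on the other strand. Of the IGFBP2 windows not shown, one held them at -49 and the other held no match. The other motifs were in 6.32% (CACGTG), 3.06% (GGAAGGAA) and 3.15% (TGATGNAA) of windows and in none of these 4, and IGFBP5 held no match in this window. GC content was 48.0% before PAPPA, 71.6% before IGFBP4, 56.8% before IGFBP2 and 61.2% before IGFBP5, against a median of 58.0% over all windows. A match describes letters and not a bound site.

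IGFBP5 (ENSG00000115461, GRCh38 chr2:216672105-216695525, minus strand), a matrix-binding member that pappalysins also cut, fell in TC32. TC32 cells had 8.55, 8.30 and 9.71 CPM when treated and 39.3, 54.6 and 47.5 CPM in vehicle (log2 change -2.41 ± 0.43, adjusted p = 0.000106), without overlap. A673 cells at 3 days had 8.64, 11.4 and 10.2 CPM, against 22.0, 30.5 and 20.1 CPM in vehicle (log2 change -1.26 ± 0.42, adjusted p = 0.0237). This A673 call was lost in limma-voom (adjusted p = 0.151) and without treated replicate 1 (adjusted p = 0.0764), treated replicate 3 (adjusted p = 0.0658) or vehicle replicate 2 (adjusted p = 0.0997). By 20 days the A673 groups overlapped, with 15.5, 16.4 and 16.1 CPM in treated and 11.6, 17.2 and 20.5 CPM in vehicle cells (log2 change -0.03 ± 0.42, adjusted p = 0.966).

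CHLA10 had the most IGFBP5 and its treated replicates disagreed. At 3 days treated CHLA10 cells had 633, 635 and 259 CPM of IGFBP5, against 372, 380 and 394 CPM in vehicle, and at 20 days 750, 727 and 146 CPM, against 740, 627 and 865 CPM. Replicate 3 of the treated cells was the lowest library at each time. The log2 changes were 0.41 ± 0.38 (adjusted p = 0.451) at 3 days and -0.46 ± 0.38 (adjusted p = 0.384) at 20 days. Without that replicate they were 0.73 (adjusted p = 0.166) and -0.01 (adjusted p = 0.993), and without the 4 distant libraries the 20-day change was 0.12 (adjusted p = 0.804). The TC32 effect minus the CHLA10 effect on IGFBP5 was -2.83 ± 0.57 (adjusted p = 0.00271).

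IGFBP2 (ENSG00000115457, GRCh38 chr2:216632828-216664436, plus strand) encodes a binding protein with a preference for IGF2 and ends 7668 bases from the end of IGFBP5, on the opposite strand. It rose in CHLA10 and A673. In CHLA10 at 3 days IGFBP2 had 865, 1042 and 873 CPM in treated cells and 455, 460 and 475 CPM in vehicle cells (log2 change 1.00 ± 0.18, adjusted p = 0.000116). A673 cells at 3 days had 1271, 1427 and 1388 CPM, against 811, 778 and 692 CPM in vehicle (log2 change 0.84 ± 0.18, adjusted p = 0.000653). Groups did not overlap in either line. TC32 had the highest vehicle level, with 1888, 1565 and 1483 CPM in treated cells and 1876, 1605 and 1870 CPM in vehicle cells, which overlapped (log2 change -0.12 ± 0.18, adjusted p = 0.627). The TC32 effect differed from that in CHLA10 by -1.12 ± 0.25 (adjusted p = 0.00428) and from that in A673 by -0.96 ± 0.25 (adjusted p = 0.00673).

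At 20 days IGFBP2 had 1745, 1470 and 2277 CPM in treated CHLA10 cells, against 575, 431 and 667 CPM in vehicle cells (log2 change 1.72 ± 0.18, adjusted p = 5.37e-08). Treated A673 cells had 4502, 5645 and 2836 CPM, against 812, 754 and 676 CPM in vehicle (log2 change 2.53 ± 0.19, adjusted p = 7.25e-11), a ratio of means of 5.79. Every treated library lay above every vehicle library, the lowest treated A673 value being that of replicate 3. The 20-day effect on IGFBP2 exceeded the 3-day effect by 1.69 ± 0.25 in A673 (adjusted p = 0.000198), whereas the corresponding difference of 0.71 ± 0.25 in CHLA10 did not pass (adjusted p = 0.0861). At 20 days the A673 effect exceeded the CHLA10 effect by 0.82 ± 0.25 (adjusted p = 0.0197), a call lost without any of 4 of the 12 libraries and without the low-count filter (0.76, adjusted p = 0.0526).

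**Figure D3:**
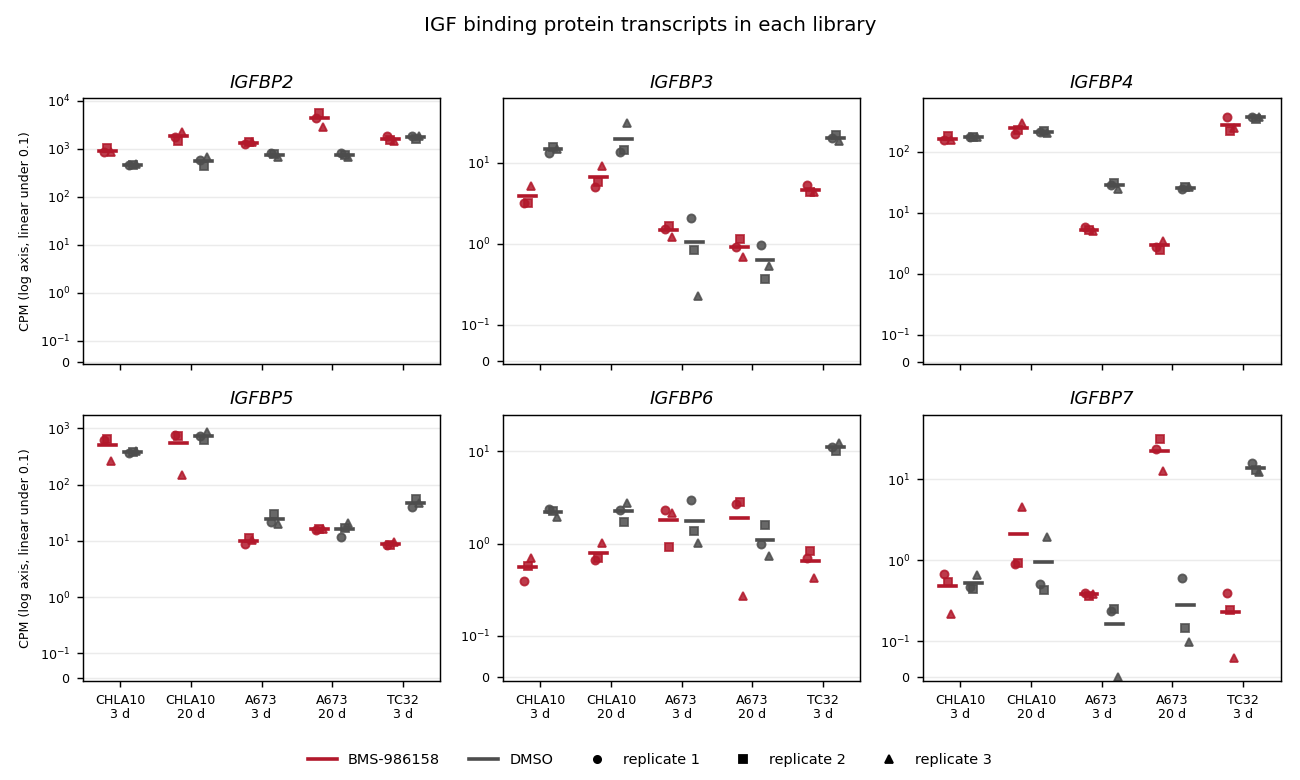
Each panel shows the CPM of 1 IGF binding protein gene in every library, on an axis that is logarithmic above 0.1 CPM and linear below, with BMS-986158 left of DMSO for each line and time, marker shape for the replicate and a bar at the group mean. IGFBP2 is higher in all treated CHLA10 and A673 libraries, IGFBP4 is lower in treated A673 cells, IGFBP5 in replicate 3 of treated CHLA10 cells is apart from the other replicates, and IGFBP7 in treated A673 cells at 20 days reaches 12.7 to 31.3 CPM.

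IGFBP3 (ENSG00000146674, GRCh38 chr7:45912245-45921874, minus strand), the main carrier of IGFs in serum, fell in CHLA10 and TC32. CHLA10 cells at 3 days had 3.18, 3.21 and 5.20 CPM when treated and 13.2, 15.8 and 14.9 CPM in vehicle (log2 change -1.93 ± 0.38, adjusted p = 0.000308). TC32 cells had 5.34, 4.32 and 4.32 CPM, against 20.0, 21.8 and 18.4 CPM in vehicle (log2 change -2.11 ± 0.38, adjusted p = 5.75e-05). At 20 days CHLA10 cells had 5.02, 5.73 and 9.05 CPM, against 13.7, 14.3 and 31.2 CPM in vehicle (log2 change -1.58 ± 0.37, adjusted p = 0.00141). No treated library reached a vehicle library in these 3 comparisons.

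IGFBP3 in A673 was near or below 2 CPM throughout. Treated A673 cells had 1.53, 1.63 and 1.22 CPM at 3 days, against 2.06, 0.832 and 0.226 CPM in vehicle, and the groups overlapped (log2 change 0.57 ± 0.46, adjusted p = 0.361). The 3-day change was called without vehicle replicate 1 (1.46, adjusted p = 0.0237). At 20 days the change was 0.52 ± 0.53 (adjusted p = 0.465), from 48 counts in treated and 48 in vehicle cells. The A673 effect on IGFBP3 minus that in CHLA10 was 2.50 ± 0.59 at 3 days (adjusted p = 0.00747) and 2.10 ± 0.64 at 20 days (adjusted p = 0.0193), and the TC32 effect minus the A673 effect was -2.68 ± 0.59 (adjusted p = 0.00182). At 20 days the difference lost its call in limma-voom (adjusted p = 0.057) and without any of 3 of the 12 libraries.

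IGFBP6 (ENSG00000167779, GRCh38 chr12:53097436-53102345, plus strand), which binds IGF2 in preference to IGF1, had its largest change in TC32. There it had 0.692, 0.835 and 0.427 CPM in treated cells and 11.2, 10.1 and 12.4 CPM in vehicle cells (log2 change -4.09 ± 0.53, adjusted p = 5.4e-07), with no overlap. CHLA10 cells at 3 days had 0.397, 0.579 and 0.694 CPM, against 2.40, 2.27 and 1.93 CPM in vehicle (log2 change -1.98 ± 0.53, adjusted p = 0.00528). At 20 days they had 0.661, 0.702 and 1.02 CPM, against 2.30, 1.70 and 2.79 CPM in vehicle (log2 change -1.50 ± 0.50, adjusted p = 0.0215). The last of these calls was lost without treated replicate 1 or 2 or vehicle replicate 1 or 3 (adjusted p between 0.0512 and 0.069).

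In A673 the IGFBP6 groups overlapped at both times. The log2 changes were 0.05 ± 0.48 at 3 days (adjusted p = 0.959) and 0.77 ± 0.50 at 20 days (adjusted p = 0.227). At 20 days treated cells had 2.70, 2.80 and 0.268 CPM and vehicle cells 1.00, 1.58 and 0.727 CPM, with treated replicate 3 below the rest; without it the change was 1.30 (adjusted p = 0.0113), and without the 4 distant libraries it was 1.28 (adjusted p = 0.0049). The TC32 effect minus the A673 effect on IGFBP6 was -4.14 ± 0.70 (adjusted p = 0.000147), and the A673 effect minus the CHLA10 effect at 20 days was 2.28 ± 0.70 (adjusted p = 0.0202), the second being lost in limma-voom (adjusted p = 0.134) and without any of 3 of the 12 libraries.

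IGFBP7 (ENSG00000163453, GRCh38 chr4:57030773-57110385, minus strand), a secreted relative that binds IGFs weakly, had the largest called changes of the 10 genes, in opposite directions. TC32 cells had 0.395, 0.245 and 0.0533 CPM when treated and 16.02, 12.9 and 12.2 CPM in vehicle, 14 counts against 732 (log2 change -5.83 ± 0.74, adjusted p = 7.69e-07). A673 cells at 20 days had 23.8, 31.3 and 12.7 CPM when treated and 0.609, 0.147 and 0.0969 CPM in vehicle, 1180 counts against 23 (log2 change 6.22 ± 0.71, adjusted p = 1.51e-07). The ratio of mean CPM in A673 at 20 days was 79.6, and every treated library lay above every vehicle library.

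Elsewhere IGFBP7 was low. Treated A673 cells at 3 days had 0.398, 0.359 and 0.385 CPM, against 0.236, 0.250 and 0 CPM in vehicle, 35 counts against 10 (log2 change 1.30 ± 0.96, adjusted p = 0.314). The 20-day effect in A673 exceeded the 3-day effect by 4.91 ± 1.41 (adjusted p = 0.0338). That difference lost its call in limma-voom (adjusted p = 0.0627), without the low-count filter (adjusted p = 0.0845) and without any of 9 of the 12 libraries (adjusted p between 0.051 and 0.249). In CHLA10 the change was -0.13 ± 0.79 at 3 days (adjusted p = 0.929) and 1.18 ± 0.63 at 20 days (adjusted p = 0.157), where replicate 3 was the highest library of both groups. The labels do not say that replicate numbers pair libraries. Taken by number, IGFBP7 was higher in each treated CHLA10 library at 20 days, at 0.895 CPM against 0.516 CPM in vehicle, 0.924 against 0.425 and 4.57 against 1.93. With the replicate block the 20-day change was 1.08 (adjusted p = 0.0753). Leaving out replicate 3 of 1 group gave 2.16 without the vehicle library (adjusted p = 0.0242) and -0.03 without the treated library (adjusted p = 0.991). The TC32 effect minus the CHLA10 effect was -5.70 ± 1.11 (adjusted p = 0.0015), the TC32 effect minus the A673 effect was -7.14 ± 1.20 (adjusted p = 0.000175), and the A673 effect minus the CHLA10 effect at 20 days was 5.04 ± 0.95 (adjusted p = 0.000376).

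The strand setting of the counting is not given in the sources used here. IGFBP7 shares 270 exonic bases with POLR2B and 94 with IGFBP7-AS1 on the other strand, so how reads there were counted is not known. The part of such reads in the low values of IGFBP7 was not tested. The summed CPM of the 4 fibroblast markers, which include matrix genes, was 29.1 to 39.6 in treated and 146 to 161 in vehicle TC32 cells, and 140 to 309 in treated and 86.0 to 151 in vehicle A673 cells at 20 days. In the other comparisons it was lower in treated cells without overlap, at 91.3 to 100.3 in treated and 116 to 118 in vehicle CHLA10 cells at 3 days, 88.2 to 130.3 in treated and 173 to 241 in vehicle CHLA10 cells at 20 days, and 113 to 126 in treated and 144 to 225 in vehicle A673 cells at 3 days. Only in A673 at 20 days did the groups overlap. DCN, LUM and PDGFRA, the more specific of these markers, reached at most 9.52, 10.8 and 1.46 CPM in any library.

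The make-up of IGFBP2 to IGFBP7 RNA was compared on a per-length scale, CPM per kilobase of annotated exon. The length is the union of all annotated exons of a gene, such as 4767 bases for IGFBP2 and 1346 for IGFBP6. Shares and rankings on this scale therefore depend on the annotation. IGFBP2 made up 55.9 ± 5.27% of the sum in treated CHLA10 cells at 3 days and 40.3 ± 0.288% in vehicle cells (SD, n = 3 each). At 20 days it made up 65.5 ± 8.03% in treated and 34.6 ± 3.33% in vehicle CHLA10 cells. The share of IGFBP4 was 18.9 ± 3.06% in treated and 29.1 ± 4.95% in vehicle cells at that time, and that of IGFBP5 15.1 ± 10.0% and 34.4 ± 1.25%. In A673, IGFBP2 was nearly the whole of the sum, at 97.99 ± 0.266% in treated and 89.8 ± 0.834% in vehicle cells at 3 days, and at 98.15 ± 0.0364% in treated and 91.0 ± 1.21% in vehicle cells at 20 days. TC32 had 72.8 ± 3.20% IGFBP2 in treated and 65.7 ± 1.27% in vehicle cells. In each of the 5 comparisons every treated library had a larger IGFBP2 share than every vehicle library; shares within a sum depend on each other, and no test was made.

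The summed per-length level of the 6 genes was 350 ± 52.3 CPM per kilobase in treated and 241 ± 4.48 in vehicle CHLA10 cells at 3 days, and 581 ± 58.4 and 335 ± 41.6 at 20 days (SD, n = 3 each). A673 had 292 ± 16.6 in treated and 178 ± 15.5 in vehicle cells at 3 days, and 925 ± 302 and 172 ± 13.6 at 20 days. TC32 differed in that treated cells had 476 ± 81.3 and vehicle cells 569 ± 39.0 CPM per kilobase, with overlapping libraries.

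**Figure D4:**
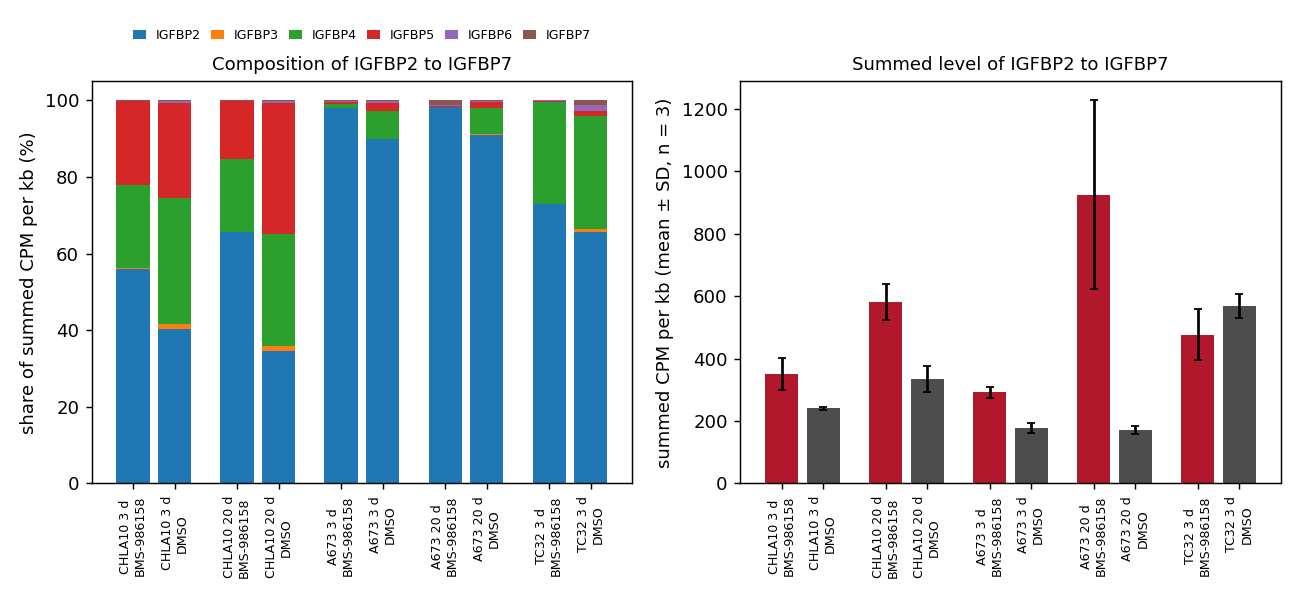
The left panel stacks the mean share (%) of each gene in the summed CPM per kilobase of IGFBP2 to IGFBP7, and the right panel gives that sum as mean ± SD (n = 3), with BMS-986158 left of DMSO for each line and time. The IGFBP2 share is larger in treated cells in each pair, 65.5% against 34.6% in CHLA10 at 20 days, and the sum in A673 at 20 days is 925 in treated and 172 in vehicle cells.

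The effect of BMS-986158 on these genes was also set against that in the other lines. At 3 days the effects in A673 and CHLA10 differed for 3 of the 10 genes, beside 10.5% of all genes tested. Those in TC32 and CHLA10 differed for 4, beside 13.8%, and those in TC32 and A673 for 6, beside 24.2%. At 20 days the A673 and CHLA10 effects differed for 6, beside 21.9% of all genes. IGFBP3 and IGFBP4 were among the genes in each A673 and CHLA10 difference and in the TC32 and A673 difference. Without the 4 distant libraries IGFBP5, IGFBP6 and STC2 were also called between A673 and CHLA10 at 3 days, where 27.5% of all genes then were, and IGFBP6 between TC32 and CHLA10, beside 27.4%. PAPPA and STC2 were added between A673 and CHLA10 at 20 days, beside 32.4%. Between 20 and 3 days, IGFBP4, IGFBP6 and STC1 were added in A673, beside 25.4%, and IGFBP2 in CHLA10, beside 18.5%.

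Levels in vehicle cells at 3 days were also set side by side between lines. Of the 10 genes, 6 differed between A673 and CHLA10, which is near the 61.2% of all genes that did. TC32 differed from CHLA10 in 9, beside 61.1% of all genes, and from A673 in all 10, beside 66.6%. PAPPA2 is counted in both, although it passed the low-count filter through vehicle TC32 cells alone. Per length, IGFBP2 led in every line, at 159 ± 12.9 CPM per kilobase in A673, 374 ± 32.5 in TC32 and 97.2 ± 2.18 in CHLA10 vehicle cells (SD, n = 3 each). Behind it in A673 came PAPPA, IGFBP4 and STC2 (14.7 ± 3.76, 12.8 ± 1.59 and 11.4 ± 3.77 CPM per kilobase), which did not differ beyond their spread. In TC32, IGFBP4 was next (168 ± 6.72), ahead of IGFBP6, IGFBP5 and IGFBP7 (8.35 ± 0.870, 7.32 ± 1.19 and 7.10 ± 1.05), whose spreads overlapped. CHLA10 had IGFBP4 (79.5 ± 0.964) and IGFBP5 (59.3 ± 1.76) next, then STC2 (16.2 ± 0.596).

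Between lines, the log2 difference in vehicle cells (A673 minus CHLA10) was -2.64 ± 0.16 for IGFBP4 (adjusted p = 3.92e-14) and -3.98 ± 0.43 for IGFBP5 (adjusted p = 5.79e-08), while PAPPA was higher by 1.58 ± 0.24 (adjusted p = 4.9e-06). TC32 minus A673 was -7.94 ± 0.37 for STC1 (adjusted p = 1.91e-16), -4.99 ± 0.33 for STC2 (adjusted p = 3.07e-12) and 6.46 ± 0.78 for IGFBP7 (adjusted p = 7.06e-08). TC32 thus held the least stanniocalcin RNA and the most IGFBP7 RNA of the vehicle cells. The smallest difference called between TC32 and A673 was that of IGFBP5 (0.96 ± 0.40, adjusted p = 0.0393), which was lost in limma-voom (adjusted p = 0.122), with library size alone as the scaling (adjusted p = 0.0824), without the low-count filter (adjusted p = 0.0802) and without any of 4 of the 6 libraries.

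The ligand IGF1 fell in all 5 comparisons, to a mean of 5.39 ± 1.01 CPM in treated CHLA10 cells at 3 days, against 41.3 ± 4.43 CPM in vehicle cells (SD, n = 3 each; log2 change -2.94 ± 0.21, adjusted p = 7.74e-11), with log2 changes between -3.96 and -2.65 in the other 4. IGF2 was measurable in A673, with 0.124 ± 0.0699 CPM in treated and 4.19 ± 0.842 CPM in vehicle cells at 3 days (log2 change -5.12 ± 0.60, adjusted p = 1.2e-06) and a log2 change of -4.85 ± 0.60 at 20 days (adjusted p = 1.19e-06). In TC32 IGF2 had 0 counts in treated and vehicle cells. Of the 5 ligand and carrier genes listed, 4 were tested. Over the 5 comparisons, between 14% and 22.3% of all genes rose and between 15.7% and 22.8% fell. Of the 4, 2 fell in A673 at each time, and 1 rose and 1 fell in CHLA10 at each time and in TC32. The one that rose was IGFBPL1, a binding protein relative, with 16 counts in treated and 0 in vehicle CHLA10 cells at 3 days (at least 4.3-fold higher, adjusted p = 0.00728) and 33 in treated and 0 in vehicle cells at 20 days (at least 8.55-fold higher, adjusted p = 0.000504). In TC32 it had 13 counts in treated cells and 1 in vehicle cells, a depth-scaled ratio of 11.7 with a 95% counting interval of 1.75 to 495 (adjusted p = 0.0279). IGFBPL1 was higher in A673 but did not pass there. Its A673 level was 4.77 ± 0.640 CPM in treated and 3.05 ± 0.302 CPM in vehicle cells at 3 days. At 20 days the order was the other way, with 2.76 ± 1.08 CPM in treated and 4.03 ± 0.698 CPM in vehicle cells. IGFALS, the carrier subunit of serum complexes, passed in none, and IGFBP1 was not tested.

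Of 10 receptor and adaptor genes, 9 were tested. In TC32 6 rose and 1 fell, where 22.3% of all genes rose and 22.8% fell. Among those that rose was IGF1R, the signalling receptor (138 ± 23.9 CPM in treated and 61.1 ± 6.94 CPM in vehicle cells; log2 change 1.17 ± 0.24, adjusted p = 0.000304). In the other comparisons IGF1R did not pass, with log2 changes between 0.17 and 0.42. CHLA10 had 1 higher and 3 lower at 3 days and 2 higher and 1 lower at 20 days, and A673 had 1 higher and 3 lower at 3 days and 2 higher and 3 lower at 20 days, where between 14% and 19.7% of all genes were higher and between 15.7% and 19.9% lower. IGF2R, which clears IGF2, rose in each comparison except A673 at 3 days, by 0.62 to 0.95. INSR, the insulin receptor, fell in CHLA10 and A673 at both times and rose in TC32 (0.48 ± 0.14, adjusted p = 0.0076).

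Of 8 further genes listed, proteases that cut binding proteins and the PAPPA partner PRG2, 5 were tested. MMP9 fell in all 5 comparisons, for instance to 0.124 ± 0.110 CPM in treated A673 cells at 20 days, against 3.41 ± 0.362 CPM in vehicle (SD, n = 3 each; log2 change -4.65 ± 0.72, adjusted p = 1.13e-05). HTRA1, a serine protease that also cuts binding proteins, fell in TC32 and rose in A673 at 20 days, as IGFBP7 did, at 0.280 ± 0.358 CPM in treated and 10.8 ± 0.466 CPM in vehicle TC32 cells (log2 change -5.27 ± 0.80, adjusted p = 9e-06) and 8.78 ± 3.57 CPM in treated and 2.40 ± 0.748 CPM in vehicle A673 cells at 20 days (log2 change 1.87 ± 0.61, adjusted p = 0.0171). In TC32 4 of the 5 fell and 0 rose, beside 22.8% of all genes lower and 22.3% higher. MMP9 there had 0 counts in treated and 24 in vehicle cells, at least 8.925-fold lower with a floor of 3 counts over the group. Its lowest vehicle library in TC32 was also at 0, so those groups overlapped. ADAM9, a membrane protease, rose in A673 at 20 days by 1.45 on the log2 scale (adjusted p = 8.27e-06), so that 2 rose and 1 fell there, and in CHLA10 at both times and A673 at 3 days MMP9 was the only 1 called. Between 14% and 19.7% of all genes were higher and between 15.7% and 19.9% lower in the CHLA10 and A673 comparisons.

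Genes whose pattern over the 10 group means of log2 CPM was most like that of a member were sought among 12373 genes. As a description with n = 10 group means, which share lines and normalization, the highest Pearson r was 0.982 for PAPPA with CDKAL1, 0.984 for STC2 with LPAR4 and 0.99 for STC1 with CGN. It was 0.962 for IGFBP2 with ABCA3, 0.968 for IGFBP3 with GJD3-AS1, 0.988 for IGFBP4 with USP2 and 0.981 for IGFBP5 with PTGIS. IGFBP6 and IGFBP7 had less close matches, 0.938 with MRPL12 and 0.935 with TPD52L2. Among the members themselves, IGFBP2 and STC2 ran most nearly opposite, with r = -0.81 over the 10 group means.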

How the data were processed

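The 30 libraries fall into 10 groups of 3 by line, time and treatment as the labels give them. Per the labels' protocols, poly(A) RNA from column-purified extracts was sequenced as read pairs on a NovaSeq instrument. FastQC, Trim Galore, STAR, DESeq2 and GRCh38 are named per the submitters' processing notes, without roles; the counter, the annotation and whether strand was used were not given in the sources used here. Values as deposited are raw counts per Ensembl gene, all whole numbers. Coordinates and exon lengths are those of GENCODE 29.

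The test was edgeR 4.0.16 in R 4.3.3, with filterByExpr by group and TMM factors. It used a mean for each group over all libraries, a robust quasi-likelihood fit and Benjamini-Hochberg adjustment over the 16713 genes kept. The fit was also run on simulated counts with changes set in CHLA10 at 3 days. Those had the same dispersion for all genes and no distant libraries, so they do not cover the unequal replicates of these data. A standard error is the absolute log2 change over the square root of F. There were 5 BMS-986158 effects, 6 differences between effects and 3 differences between vehicle lines at 3 days. CPM used TMM-scaled library sizes summed over the genes kept. Any 2 libraries of a group differed by more than sampling noise (chi-square per gene of 2.19 or more). Each was counted as 1 replicate, although such a difference does not tell whether they were separate cultures. The labels give a single batch. Depth, between 16083677 and 48949739 counts per library, limits the precision at low counts; a floor is 3 counts over the group and counting intervals are at 95%.

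The labels do not say whether replicate numbers in the titles pair libraries, so the correlation of their deviations within groups was examined. CHLA10 at 20 days alone had every same-number correlation over 0.1 (0.199, 0.15 and 0.361). Even there, treated replicate 2 was most like vehicle replicate 1, so pairing stays unsettled. The replicate block changed no call of a member in CHLA10 at 20 days. The text names the 10 members, a list of IGF pathway genes and the gene most like each member; members and lists were chosen with earlier results of these data known. The alternatives tried were DESeq2 1.42.0, limma-voom (limma 3.58.1), 3 other scalings, other count filters and thresholds, fits of the contrast's own lines, a replicate block, the removal of each replicate in turn, and the removal of the 4 distant libraries together.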

Additional observations from a re-analysis of the deposited data

Results flagged for a closer look

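Effects that differed between lines or times by the test of the difference itself (edgeR's quasi-likelihood test, Benjamini-Hochberg adjusted) are collected here as log2 differences between effects. Comparisons that share a line share its libraries.

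Between times, in CHLA10 (20 minus 3 days), STC1 differed by 1.62 (adjusted p = 0.00293) and STC2 by -1.86 (adjusted p = 0.00544). In A673, IGFBP2 differed by 1.69 (adjusted p = 0.000198), IGFBP7 by 4.91 (adjusted p = 0.0338) and STC2 by -2.1 (adjusted p = 0.00545).

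Between lines at 3 days, A673 minus CHLA10 gave 3 of the 10 genes, beside 10.5% of all genes tested, with IGFBP3 at 2.5 (adjusted p = 0.00747), IGFBP4 at -2.34 (adjusted p = 1.48e-07) and PAPPA at -1.21 (adjusted p = 0.0291). TC32 minus CHLA10 gave 4, beside 13.8% of all genes, with IGFBP2 at -1.12 (adjusted p = 0.00428), IGFBP5 at -2.83 (adjusted p = 0.00271), IGFBP7 at -5.7 (adjusted p = 0.0015) and STC2 at -2.78 (adjusted p = 0.0432). TC32 minus A673 gave 6, beside 24.2%. There IGFBP2 was at -0.96 (adjusted p = 0.00673), IGFBP3 at -2.68 (adjusted p = 0.00182), IGFBP4 at 2.02 (adjusted p = 5.49e-07), IGFBP6 at -4.14 (adjusted p = 0.000147), IGFBP7 at -7.14 (adjusted p = 0.000175) and PAPPA at 1.85 (adjusted p = 0.000696).

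At 20 days, A673 minus CHLA10 gave 6 of the 10 genes, beside 21.9% of all genes. IGFBP2 was at 0.82 (adjusted p = 0.0197), IGFBP3 at 2.1 (adjusted p = 0.0193), IGFBP4 at -3.34 (adjusted p = 1.32e-10), IGFBP6 at 2.28 (adjusted p = 0.0202), IGFBP7 at 5.04 (adjusted p = 0.000376) and STC1 at -2.79 (adjusted p = 1.76e-07).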

How the results depend on the processing

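Of 33 calls of a BMS-986158 effect, 27 were kept in every refit, alternatives and left-out libraries alike; of 24 differences between effects 18 were, and of 25 vehicle differences 24 were. None of these calls changed direction. With the 4 distant libraries left out, 6 genes differed between 20 and 3 days in A673, where 3 did with all libraries, while the share of all genes called was 25.4% without those libraries and 7.26% with them. Between A673 and CHLA10 at 3 days 6 did, where 3 did with all libraries, beside 27.5% of all genes without those libraries and 10.5% with them; DESeq2 gave 5, beside 13.7%. The share of all genes thus moved by a larger factor than the count of members in both fits without the distant libraries. At adjusted p under 0.01, 3 of 6 remained for A673 minus CHLA10 at 20 days, namely IGFBP4, IGFBP7 and STC1. The share of all genes at that threshold was not counted, so this number cannot be set against a background. Leaving out 1 library at a time, calls ranged from 6 to 7 (CHLA10), 4 to 6 (A673) and 7 to 9 (TC32) at 3 days, and from 5 to 6 (CHLA10) and 6 to 7 (A673) at 20 days. The share of all genes called ranged over these refits from 21.5 to 27.0%, 25.7 to 35.1% and 36.5 to 43.1% in the same order at 3 days, and from 25 to 32.8% and 32.3 to 40.2% at 20 days. For differences between times they ranged from 2 to 3 (CHLA10) and 2 to 4 (A673), beside 1.68 to 11.5% and 3.98 to 13.6% of all genes. For differences between lines they ranged from 2 to 4 (A673 minus CHLA10), 3 to 5 (TC32 minus CHLA10) and 6 to 6 (TC32 minus A673) at 3 days, and from 3 to 8 (A673 minus CHLA10) at 20 days, beside 6.41 to 15.9%, 7.52 to 18.3%, 17.6 to 26.5% and 16.8 to 24.7% of all genes. For vehicle cells in the 3 pairs of lines at 3 days they ranged from 6 to 7, 9 to 9 and 9 to 10, beside 54.9 to 60.5%, 54.8 to 57.5% and 61.4 to 64.4%. With the replicate block, calls numbered 6 (CHLA10), 4 (A673) and 9 (TC32) at 3 days, and 6 (CHLA10) and 5 (A673) at 20 days, beside 32.2, 35.7, 47.0, 35.2 and 41.3% of all genes. The calls lost under the block were PAPPA2 in CHLA10 at 3 days (adjusted p = 0.0781), IGFBP5 in A673 at 3 days (0.0687) and PAPPA2 in A673 at 20 days (0.059). In those groups the same-number correlations were not all over 0.1. Signs that turned were all of uncalled log2 changes. With 1 library out, the change ranged from -0.482 to 0.207 for IGFBP7 in CHLA10 at 3 days and from -0.028 to 2.156 at 20 days, from -1.811 to 1.513 for PAPPA2 in A673 at 3 days and from 0.000 to 2.171 in CHLA10 at 20 days, from -0.238 to 0.589 for IGFBP6 in A673 at 3 days, and from -0.235 to 0.151 for IGFBP5 in A673 at 20 days. IGFBP6 in A673 at 3 days was also at -0.012 in DESeq2, at 0.000 and -0.002 with upper-quartile and library-size scaling, and at -0.192 without the distant libraries; IGFBP4 and IGFBP5 in CHLA10 at 20 days were at -0.016 and 0.120 without those, and IGFBP5 in A673 at 20 days was at 0.025 in limma-voom. The cause was not tested. Genes under about 1 CPM, PAPPA2 outside TC32 first, are limited by depth.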
